A study of Mus musculus with 6 samples.

Results

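The genes described here serve antigen presentation and costimulation, and their RNA was measured in BV2 cells given lipopolysaccharide (LPS), an outer membrane component of Gram-negative bacteria, or vehicle. BV2 is a line of mouse microglia immortalised in culture. The set held 32 genes, chosen by symbol out of 55401 listed. It covered 8 class I heavy chain genes with B2m, 6 genes of class I peptide loading and its regulator, 5 of the immunoproteasome, 7 of class II and 6 of costimulation. All 32 symbols were found, and 28 genes passed the filter on low counts and were tested. The 4 that did not pass were H2-Aa, H2-Ab1, H2-Eb1 and Ciita. Poly(A)-selected RNA was sequenced in 3 libraries of LPS-treated cells and 3 of vehicle-treated cells. The LPS group and the Vehicle group were the same cell line and differed, as far as the labels go, only in the treatment. The labels gave no dose or time of treatment and did not say whether each library was a separate culture. The p-values therefore measure the spread among these 6 libraries alone, which may be technical.

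Class I molecules are pairs of a heavy chain and beta-2-microglobulin that show peptides from inside the cell to cytotoxic T cells. The peptides are made by the proteasome, pumped into the endoplasmic reticulum by the TAP transporter, trimmed there and fitted into the groove by a loading complex. Class II molecules show peptides from swallowed material to helper T cells, are guided by the invariant chain Cd74 and depend on the transactivator Ciita. Costimulatory molecules on the same cell decide with them whether the T cell is activated, and microglia are the resident cells of the brain best known for carrying this equipment during inflammation.

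The promoters of the class I genes are shown first because most of these genes were higher with LPS. Mouse promoter sequences from RefSeq, build GRCm38.p6, were found for 22 of the 32 genes, and the 250 bases before the annotated start were searched on both strands. No promoter was found for H2-T24, Tap2, Tapbpl, Nlrc5, H2-Ab1, Cd74, Ciita, Cd40, Cd83 or Cd86. The motif counts below do not cover these genes, which include Cd40, Cd83 and Cd74. Capitals mark matches, on either strand, to an NF-kB site (GGG, 2 free bases, TT, 1 free base, CC) or to an interferon-stimulated response element (ISRE: GAAA, 2 free bases, GAAA). The promoters of H2-K1 (chr17:34000348-34000597, minus strand), H2-D1 (chr17:35262844-35263093, plus strand), H2-Q4 (chr17:35379367-35379616, plus strand) and B2m (chr2:122147437-122147686, plus strand) are those of class I genes with an NF-kB match. That of H2-T22 (chr17:36042743-36042992, minus strand) has an ISRE match, and that of H2-Aa (chr17:34287824-34288073, minus strand) is from a class II gene whose counts were at or near 0 here. All 6 are printed 5′ to 3′ on the gene's own strand.
H2-K1: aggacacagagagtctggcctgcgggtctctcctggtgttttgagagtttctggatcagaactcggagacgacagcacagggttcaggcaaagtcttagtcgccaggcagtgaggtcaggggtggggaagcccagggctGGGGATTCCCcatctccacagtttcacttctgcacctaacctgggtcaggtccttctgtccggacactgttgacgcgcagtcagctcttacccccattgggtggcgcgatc
H2-D1: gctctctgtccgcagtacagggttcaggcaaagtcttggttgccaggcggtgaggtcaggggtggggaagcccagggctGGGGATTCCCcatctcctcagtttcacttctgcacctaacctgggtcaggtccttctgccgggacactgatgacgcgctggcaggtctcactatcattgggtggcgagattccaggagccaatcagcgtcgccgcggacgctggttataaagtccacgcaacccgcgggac
H2-Q4: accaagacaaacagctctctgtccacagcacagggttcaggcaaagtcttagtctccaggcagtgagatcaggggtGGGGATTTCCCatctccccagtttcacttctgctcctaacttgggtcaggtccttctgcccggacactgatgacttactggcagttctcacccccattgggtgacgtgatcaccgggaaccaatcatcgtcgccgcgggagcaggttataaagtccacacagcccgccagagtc
B2m: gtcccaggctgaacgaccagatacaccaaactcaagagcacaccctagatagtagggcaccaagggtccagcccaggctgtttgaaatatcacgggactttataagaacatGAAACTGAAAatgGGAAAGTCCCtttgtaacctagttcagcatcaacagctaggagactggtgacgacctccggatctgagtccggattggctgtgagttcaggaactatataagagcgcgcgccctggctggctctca
H2-T22: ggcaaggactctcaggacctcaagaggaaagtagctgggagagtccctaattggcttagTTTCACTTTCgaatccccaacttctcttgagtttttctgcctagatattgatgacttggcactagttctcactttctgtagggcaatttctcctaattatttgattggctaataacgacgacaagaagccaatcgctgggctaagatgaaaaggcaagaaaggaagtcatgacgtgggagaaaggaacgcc
H2-Aa: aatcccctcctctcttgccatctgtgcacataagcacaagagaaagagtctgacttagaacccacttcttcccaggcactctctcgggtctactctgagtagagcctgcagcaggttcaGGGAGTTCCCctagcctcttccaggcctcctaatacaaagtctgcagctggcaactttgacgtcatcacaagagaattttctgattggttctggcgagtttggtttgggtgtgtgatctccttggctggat

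In H2-K1 the NF-kB match began at position -111 from the start, in H2-D1 at -171, in B2m at -126 and in H2-Aa at -131. H2-Q4 held 2 overlapping matches, at -174 and -173. B2m had an ISRE match at -139 as well, and H2-T22 had one at -191. H2-K1 and H2-D1 shared an unbroken run of 47 bases that contains the NF-kB match, so these 2 promoters are not independent instances. H2-Q4 is not independent of them either, with shared runs of 30 bases with H2-K1 and 21 with H2-D1, both outside the match. H2-T23, the mouse Qa-1 gene whose promoter is not printed, also held an ISRE match, at -124.

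Of the 22 genes, counted at any listed start, 5 held the NF-kB letters (22.7%), against 4.11% of all 32536 mouse promoters in the table. The ISRE letters were in 3 (13.6%), against 2.98% of all. The search allowed no mismatch in the fixed letters, so near matches were not counted. The run agtttcactt, which overlaps the ISRE match of H2-T22, is also in the promoters of H2-K1, H2-D1 and H2-Q4. A promoter without an ISRE match here may therefore still hold a related element, and this was not tested. The box CCAAT was in 15 (68.2%), against 33.8% of all, and TGACG, the core of a cAMP response element, was in 10 (45.5%), against 17.9%. The windows of Tap1 and Psmb9, on opposite strands, share 225 bases that hold 1 CCAAT and 1 TGACG. Both genes were therefore counted for the same 2 matches. None of the 4 motifs lay in this window of Erap1, Psmb8, Psmb10, Psme1, Cd80 or Cd274. The members share ancestry and, for many, a gene cluster, so the shares are a description, and a match is not evidence of binding.

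Library totals ran from 45969690 (Vehicle 3) to 59023474 (Vehicle 1) estimated counts, and 18984 to 20615 genes were above 0. The deposited estimates piled up at low values with a spacing of 3.81 to 3.93 counts, and are therefore not numbers of reads. The label of the cells was checked with 12 microglia and macrophage markers. Their summed level was 1636 to 2018 CPM (deposited counts per scaled library total) in LPS libraries and 2035 to 2267 CPM in Vehicle libraries, carried by genes such as Cd68, Csf1r and Itgam, while Sall1 was at 0 in all 6 libraries and P2ry12 and Cx3cr1 were low. Library LPS 3 stood apart from LPS 1 and LPS 2. Its difference from their mean had a median of 0.15 on the log2 scale in the fifth of genes with the longest transcripts and -0.07 in the fifth with the shortest, and of 0.16 in the fifth with the lowest GC content. All 5 immunoproteasome genes and 6 of the 8 class I genes had their lowest LPS value in LPS 3, so values without that library are given beside the results. Library LPS 1 stood apart in other genes: 8 astrocyte, neuron and endothelial markers were all at 0 in LPS 1, and summed to 9.26 CPM in LPS 2, 7.16 CPM in LPS 3 and 5.64 to 10.1 CPM in Vehicle libraries. Itgam was at 42.9 CPM in LPS 1, 186 CPM in LPS 2 and 249 CPM in LPS 3, against 156 to 222 CPM in Vehicle libraries.

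Levels below are CPM after TMM scaling, and fold changes are log2 values of LPS over Vehicle with their standard errors (SE) from edgeR, 3 libraries a group. A gene was called where edgeR's quasi-likelihood test gave an adjusted p (Benjamini-Hochberg, over all genes tested) under 0.05. Of the 28 tested members, 13 rose with LPS and 2 fell. Among all 16371 genes tested, 23.6% were called, 12.7% as higher and 10.9% as lower. The median log2 fold change was 0.36 over the members and -0.02 over all tested genes. Because the members were chosen with earlier results of these data known, their counts and median are a description only. Without LPS 3, 17 members rose and 2 fell, against 26.4% of all tested genes called, 14.3% higher and 12.1% lower. Without LPS 1, 7 members rose and 2 fell, against 16.6% of all tested genes called, 9.03% higher and 7.58% lower. In 16 members every LPS library lay above every Vehicle library and in 3 every one lay below, against 20.8% and 20.0% of all tested genes (40.8% together). TMM scaling put 53.9% of all calls on the higher side. Scaling by total counts alone put 42.2% there, moved the median of all genes to -0.10 and called 10 members higher. The cells were measured in bulk, so more cells expressing a gene and more RNA per cell cannot be told apart.

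**Figure D1:**
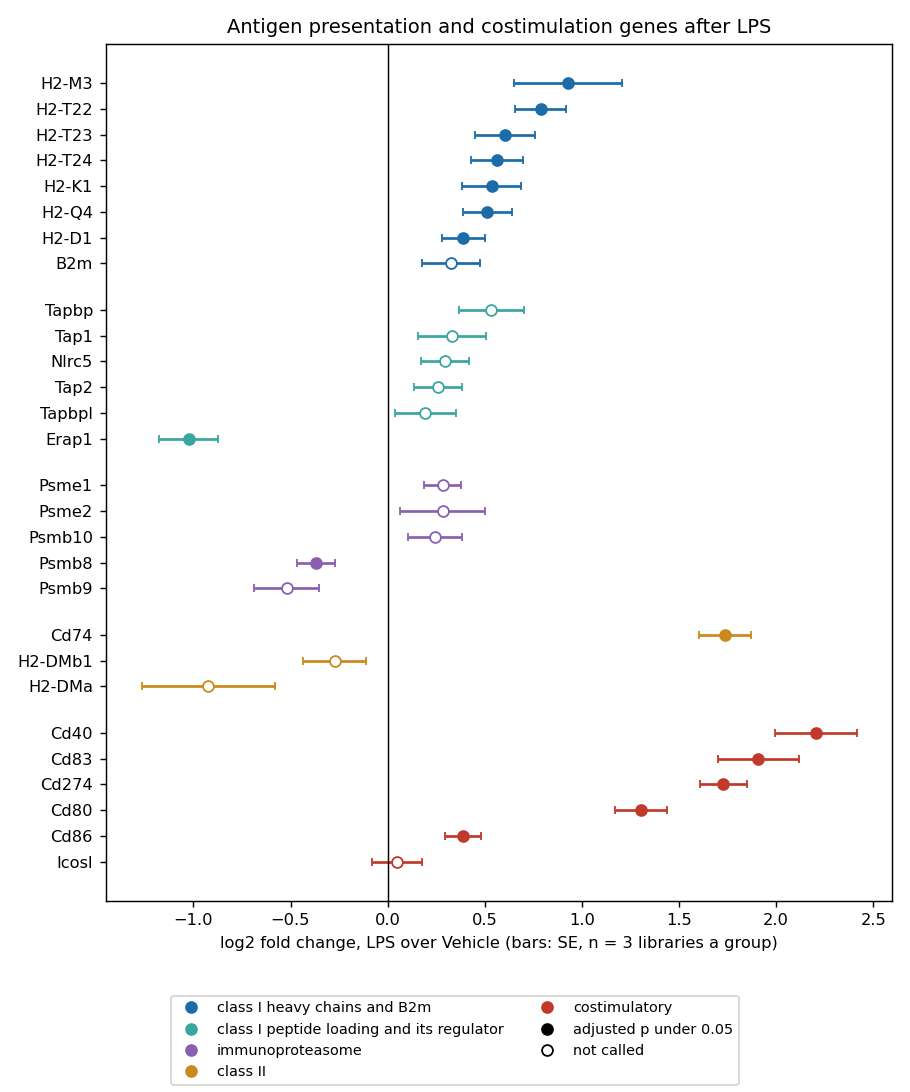
Log2 fold change of LPS over Vehicle for the 28 tested genes, by function, with bars of 1 SE (edgeR, 3 libraries a group); filled points had an adjusted p under 0.05. Cd40, at 2.21, is farthest to the right and Erap1, at -1.02, farthest to the left, and all 8 class I points lie to the right of 0.

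Of the 8 class I genes, 7 rose, and B2m, the shared light chain, had a positive difference that did not pass the test. The rises were modest, from 0.39 in H2-D1 to 0.93 in H2-M3, with a median of 0.55 over the 8 genes. H2-K1, H2-D1, H2-T22, H2-T23, H2-T24, H2-Q4 and H2-M3 have close relatives in the genome, so reads could be assigned to the wrong copy and each value is uncertain on its own.

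The classical heavy chains H2-K1 and H2-D1 present peptides to cytotoxic T cells. H2-K1 (ENSMUSG00000061232) had 340, 424.6 and 296.5 CPM in LPS libraries 1 to 3, against 279.7, 213.6 and 239 CPM in Vehicle libraries 1 to 3. Every LPS library was above every Vehicle library, and the log2 fold change was 0.53 ± 0.15 (adjusted p 0.0349). H2-D1 (ENSMUSG00000073411) had 1261, 1282 and 988.1 CPM in LPS libraries, against 911.9, 859.5 and 924.8 CPM in Vehicle libraries. LPS 3 was the lowest of the LPS group and still above all Vehicle libraries. The log2 fold change of H2-D1 was 0.39 ± 0.11 (adjusted p 0.0362), and without LPS 3 it was 0.50 ± 0.06 (adjusted p 0.000972). The H2-D1 call was lost when any library other than LPS 3 was left out, and that of H2-K1 without LPS 1, LPS 2, Vehicle 2 or Vehicle 3; the adjusted p then reached 0.137 for H2-D1 and 0.126 for H2-K1. The H2-D1 call was also lost with total counts as the scaling (adjusted p 0.0648).

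Among the nonclassical heavy chains, H2-T22 (ENSMUSG00000056116), a ligand of a subset of gamma-delta T cells, had 83.89, 86.95 and 65.35 CPM in LPS libraries, against 49.6, 43.04 and 44.09 CPM in Vehicle libraries. The groups did not overlap, and the log2 fold change of 0.79 ± 0.13 (adjusted p 0.00346) was called in all 6 repeats that each left out 1 library. H2-T23 (ENSMUSG00000067212), which encodes Qa-1, the ligand of inhibitory receptors on natural killer cells, had 151, 168.4 and 129.7 CPM in LPS libraries, against 101.9, 115.4 and 78.28 CPM in Vehicle libraries. It also showed no overlap, with a log2 fold change of 0.60 ± 0.16 (adjusted p 0.0249).

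H2-T24 (ENSMUSG00000053835), a nonclassical heavy chain of the same region, had 40.14, 35.52 and 48.36 CPM in LPS libraries, against 27.62, 27.9 and 28.45 CPM in Vehicle libraries. Here LPS 3 was the highest, and the log2 fold change was 0.56 ± 0.13 (adjusted p 0.0177). H2-Q4 (ENSMUSG00000035929), from the Qa region, had 59.89, 67.37 and 51.67 CPM in LPS libraries, against 43.74, 43.45 and 38.07 CPM in Vehicle libraries. Its groups did not overlap, and the log2 fold change was 0.51 ± 0.13 (adjusted p 0.0194). H2-M3 (ENSMUSG00000016206), which presents formylated bacterial peptides, had 38.82, 46.78 and 22.82 CPM in LPS libraries, against 19.18, 22.85 and 14.95 CPM in Vehicle libraries. LPS 3 lay just under Vehicle 2, so the groups overlapped. Its log2 fold change of 0.93 ± 0.28 (adjusted p 0.0488) was the weakest call, held in 5 of 10 other settings, and was 1.17 ± 0.18 (adjusted p 0.00232) without LPS 3.

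These calls were also lost in some repeats without 1 library. Without any library other than LPS 3, fewer of all tested genes were called too, from 2344 without Vehicle 2 to 2844 without LPS 1. With all 6 libraries 3864 were called, and 4535 without LPS 3. H2-T23 was no longer called without LPS 1, LPS 2, Vehicle 1 or Vehicle 3, H2-T24 without any of the Vehicle libraries, and H2-Q4 and H2-M3 without any library other than LPS 3. The adjusted p then reached 0.0876 for H2-T23, 0.0689 for H2-T24, 0.0764 for H2-Q4 and 0.140 for H2-M3. Without LPS 3 all 7 heavy chains were called, with log2 fold changes of 0.64 ± 0.13 for H2-K1, 0.90 ± 0.10 for H2-T22, 0.69 ± 0.16 for H2-T23, 0.43 ± 0.11 for H2-T24 and 0.60 ± 0.11 for H2-Q4 beside those of H2-D1 and H2-M3 given above.

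B2m (ENSMUSG00000060802) had 1495, 1348 and 1899 CPM in LPS libraries, against 1168, 1147 and 1466 CPM in Vehicle libraries. Vehicle 3 lay above LPS 2, so the groups overlapped, and the log2 fold change was 0.33 ± 0.15 (adjusted p 0.154). Without LPS 3 it was 0.17 ± 0.12 (adjusted p 0.344), and over all repeats and settings the adjusted p ran from 0.0376 to 0.379. Per kilobase of transcript, B2m averaged 1838 ± 332 CPM per kb in LPS libraries and 1466 ± 208 CPM per kb in Vehicle libraries (SD, n = 3 each), the highest level of the 32 genes and rank 17 of all genes. H2-D1 followed with 560 ± 78.1 CPM per kb in LPS libraries and 428 ± 16.4 in Vehicle libraries (SD, n = 3 each). On that scale H2-K1 averaged 189 ± 34.7 in LPS libraries and 130 ± 17.8 in Vehicle libraries (SD, n = 3 each), and each of the other 5 heavy chains was below 60 in both groups.

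**Figure D2:**
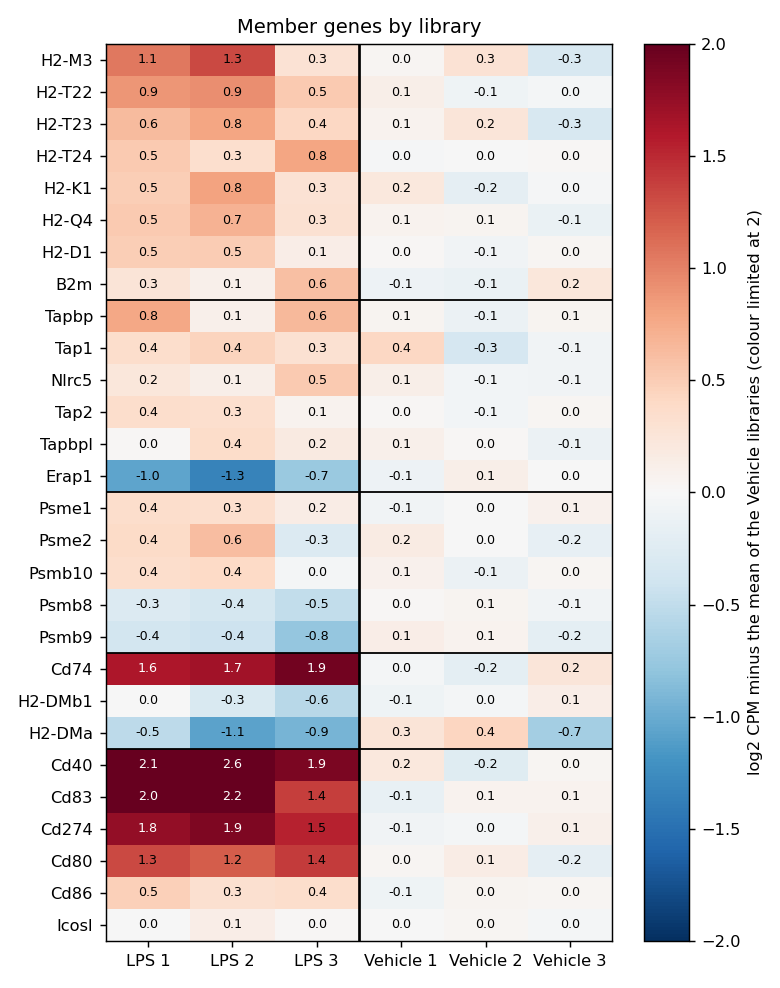
Log2 CPM of the 28 tested genes in each library minus the mean of that gene over the 3 Vehicle libraries, with the 3 LPS libraries on the left and the 3 Vehicle libraries on the right; red is above that mean and blue below, colours stop at a difference of 2, and the number in each cell is the difference. Erap1, Psmb8 and Psmb9 run the other way from the class I and costimulatory genes.

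Of the 6 genes of class I peptide loading and its regulator, none rose and 1 fell, at a median log2 fold change of 0.28. Over all tested genes 12.7% were higher and 10.9% lower, so with 6 genes these counts do not set the group apart. The gene that fell was Erap1 (ENSMUSG00000021583), the aminopeptidase of the endoplasmic reticulum that trims peptides to the length that fits class I. Erap1 had 34.82, 28.59 and 43.19 CPM in LPS libraries, against 67, 77.98 and 71.67 CPM in Vehicle libraries. All LPS libraries were far below the lowest Vehicle library, with a log2 fold change of -1.02 ± 0.15 (0.492-fold, adjusted p 0.00205). The fall was called in every one of the 6 repeats without 1 library and in all 10 other settings, and was -1.19 ± 0.13 without LPS 3. Exons of Erap1 share 834 bases with Cast on the opposite strand in the GENCODE M21 annotation, and the library kit is not stated to keep strand, so part of its signal cannot be assigned with certainty.

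Tap1 (ENSMUSG00000037321), a subunit of the peptide transporter, had 59.23, 63.22 and 57.53 CPM in LPS libraries, against 61.6, 36.71 and 44.33 CPM in Vehicle libraries. The LPS libraries were close together and Vehicle 1 was as high as they were, so the groups overlapped, at a log2 fold change of 0.33 ± 0.18 (adjusted p 0.220). Without Vehicle 1 the adjusted p was 0.0302, and over all repeats and settings it ran from 0.0302 to 0.524. Tap1 shares 212 exonic bases with Psmb9 on the opposite strand in the same annotation, and Psmb9 is described with the immunoproteasome.

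Tapbp (ENSMUSG00000024308), which encodes tapasin, the bridge between the transporter and class I, came closest to a call. It had 153.5, 96.08 and 139.4 CPM in LPS libraries, against 92.93, 82.6 and 93.04 CPM in Vehicle libraries. All LPS libraries were above all Vehicle libraries, LPS 2 by little, with a log2 fold change of 0.53 ± 0.17 (adjusted p 0.0507). Without LPS 2 the adjusted p was 0.00502, and over all repeats and settings it ran from 0.00502 to 0.170. Tapbp shares 149 exonic bases with its neighbour Zbtb22. Nlrc5 (ENSMUSG00000074151), the transactivator of class I genes, had 83.83, 77.66 and 102.2 CPM in LPS libraries, against 77.6, 68.93 and 68.21 CPM in Vehicle libraries. Its groups touched without overlapping, and the log2 fold change of 0.30 ± 0.12 did not pass (adjusted p 0.121), and was 0.17 ± 0.10 without LPS 3. Tap2 (ENSMUSG00000024339), the partner of Tap1, averaged 30.9 ± 3.38 CPM in LPS libraries and 25.8 ± 0.882 CPM in Vehicle libraries (SD, n = 3 each), with all LPS libraries above all Vehicle libraries and a log2 fold change of 0.26 ± 0.12 (adjusted p 0.167). Without LPS 3 Tap2 was called (adjusted p 0.0477), and over all repeats and settings its adjusted p ran from 0.0477 to 0.389. Tapbpl (ENSMUSG00000038213), a peptide editor related to tapasin, averaged 12.3 ± 1.5 CPM in LPS libraries and 10.7 ± 0.797 CPM in Vehicle libraries (SD, n = 3 each), with a log2 fold change of 0.19 ± 0.16 (adjusted p 0.423).

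Of the 5 immunoproteasome genes, none was called higher and 1 was called lower. Beside 12.7% higher and 10.9% lower over all tested genes, these counts do not set the group apart. Psmb8 fell, Psmb9 had a difference of the same sign just outside the threshold, and Psmb10, Psme1 and Psme2 had positive differences that did not pass. These genes encode the catalytic subunits that replace the constitutive ones (Psmb8, Psmb9, Psmb10) and the cap that opens the proteasome (Psme1, Psme2). The median log2 fold change of the 5 was 0.25.

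Psmb8 (ENSMUSG00000024338) had 61.55, 58.28 and 52.96 CPM in LPS libraries, against 75.38, 77.28 and 70.47 CPM in Vehicle libraries. Every LPS library was below every Vehicle library, and the log2 fold change was -0.37 ± 0.10 (adjusted p 0.0273). The call was lost without LPS 2 or any of the Vehicle libraries, where the adjusted p reached 0.105, and the log2 fold change was -0.32 ± 0.09 without LPS 3. Psmb9 (ENSMUSG00000096727) had 12.03, 11.67 and 9.131 CPM in LPS libraries, against 17.15, 16.3 and 13.58 CPM in Vehicle libraries. Its groups did not overlap either, at a log2 fold change of -0.52 ± 0.17 (adjusted p 0.0555). Psmb9 was called lower in 6 of 10 other settings, with adjusted p from 0.0255 to 0.175 over all repeats and settings. It shares 212 exonic bases with Tap1 on the opposite strand, which had 16711 counts over all libraries against 4136 for Psmb9. Part of the Psmb9 signal, and so of its ratio below, therefore cannot be assigned with certainty.

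Psmb10 (ENSMUSG00000031897) had 49.54, 50.91 and 37.45 CPM in LPS libraries, against 40.95, 35.67 and 39.64 CPM in Vehicle libraries. Psme1 (ENSMUSG00000022216) had 104.4, 103.4 and 90.65 CPM in LPS libraries, against 77.81, 80.9 and 86.54 CPM in Vehicle libraries. Psme2 (ENSMUSG00000079197) had 92.24, 109.3 and 58.95 CPM in LPS libraries, against 80.04, 70.45 and 63.63 CPM in Vehicle libraries. In these 3 genes LPS 1 and LPS 2 were above all Vehicle libraries, and LPS 3 was lower. LPS 3 was still above all Vehicle libraries in Psme1, among them in Psmb10 and below all of them in Psme2. The log2 fold changes were 0.25 ± 0.14 for Psmb10 (adjusted p 0.244), 0.28 ± 0.10 for Psme1 (adjusted p 0.0653) and 0.28 ± 0.22 for Psme2 (adjusted p 0.402). Without LPS 3 all 3 were called higher, with adjusted p of 0.0315 for Psmb10, 0.0204 for Psme1 and 0.0191 for Psme2, so these values turn on 1 library.

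Ratios within a library do not depend on its scaling, so each subunit was set against its constitutive counterpart on the log2 CPM scale. Including Cd80 and Cd274 over Cd86, 7 ratios were compared with a two-sided exact permutation test. With 3 libraries against 3 this test cannot give a p under 0.1, so none could pass. The ratio of Psmb9 to Psmb6, the subunit it replaces, was -5.69 ± 0.05 in LPS libraries and -4.68 ± 0.22 in Vehicle libraries (SD, n = 3 each; exact p 0.1, adjusted over 7 ratios 0.14). The difference of -1.003 is a ratio 0.499 times that in Vehicle libraries, and the groups did not overlap. Psmb6 itself rose, by 0.49 ± 0.10 (adjusted p 0.0106). The ratio of Psmb8 to Psmb5 was -2.47 ± 0.18 in LPS libraries and -1.90 ± 0.12 in Vehicle libraries (SD, n = 3 each; exact p 0.1, adjusted 0.14), again without overlap. For Psmb10 over Psmb7 the ratio was -3.12 ± 0.06 in LPS libraries and -3.15 ± 0.18 in Vehicle libraries (SD, n = 3 each; exact p 0.9, adjusted 0.9).

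For the cap, Psme1 was set against Psme3, which encodes the alternative nuclear cap. That ratio was -1.27 ± 0.19 in LPS libraries and -1.81 ± 0.06 in Vehicle libraries (SD, n = 3 each; exact p 0.1, adjusted 0.14), with all LPS libraries above. The ratio of Psme2 to Psme3 was -1.51 ± 0.53 in LPS libraries and -2.01 ± 0.18 in Vehicle libraries (SD, n = 3 each; exact p 0.3, adjusted 0.35), with overlap. Its difference was 0.50, and it was 0.79 without LPS 3 and 0.28 without LPS 2.

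**Figure D3:**
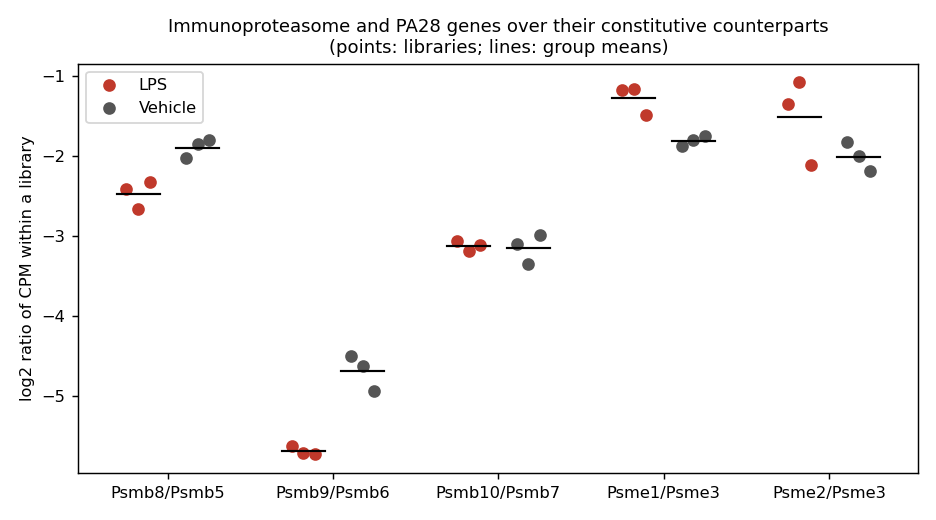
The 5 within-library log2 CPM ratios of immunoproteasome genes to their counterparts, with 1 point for each library, LPS to the left of Vehicle, and lines at the group means (n = 3). Psmb9/Psmb6 and Psmb8/Psmb5 sit lower in LPS libraries, Psmb10/Psmb7 overlaps between groups, Psme1/Psme3 sits higher and Psme2/Psme3 is spread out by LPS 3.

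The class II genes gave 1 strong rise, that of Cd74, beside chains with counts at or near 0. Cd74 (ENSMUSG00000024610), the invariant chain that blocks the class II groove and also acts as a surface receptor for the cytokine Mif, had 481.4, 505.9 and 598 CPM in LPS libraries, against 152.6, 137.3 and 185.6 CPM in Vehicle libraries. Every LPS library was far above the highest Vehicle library. The log2 fold change was 1.74 ± 0.13 (3.33-fold, adjusted p 8.42e-05), and the call held in all 6 repeats without 1 library and in all 10 other settings, with 1.64 ± 0.12 without LPS 3. Per kilobase, Cd74 averaged 375 ± 43.6 CPM per kb in LPS libraries and 112 ± 17.5 CPM per kb in Vehicle libraries (SD, n = 3 each), which ranks it 251 of all genes.

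The class II chains that Cd74 accompanies were at or near 0. H2-Ab1 (ENSMUSG00000073421), a beta chain, had 0 counts in all 6 libraries. H2-Aa (ENSMUSG00000036594), its alpha chain, had 7 counts in LPS 2 and 0 in the other 5 libraries. H2-Eb1 (ENSMUSG00000060586) had 4 counts in Vehicle 1 and 0 in the rest. The same held for Ciita (ENSMUSG00000022504), the transactivator of the class II chains, with 8 counts in Vehicle 2 and 0 elsewhere. A count of 0 allows up to 3 steps of the deposited values, 11.4 to 11.8 counts or 0.193 to 0.243 CPM per library, and all of these values lie under it. No fold change is given for these 4 genes. The limit covers counting error only, because amplified reads carry no molecular identifiers here and are not independent.

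H2-DMa and H2-DMb1 encode the chains of the exchange factor that takes the remnant of Cd74 out of the class II groove. H2-DMa (ENSMUSG00000037649) had 2.443, 1.667 and 1.847 CPM in LPS libraries, against 4.217, 4.764 and 2.196 CPM in Vehicle libraries. LPS 1 lay above Vehicle 3, and the log2 fold change of -0.92 ± 0.34 did not pass (adjusted p 0.0896). Without Vehicle 3 the adjusted p was 0.0310, and over all repeats and settings it ran from 0.0310 to 0.253; without LPS 3 the log2 fold change was -0.88 ± 0.40. H2-DMa shares 360 exonic bases with Brd2, a far more abundant gene on the opposite strand. H2-DMb1 (ENSMUSG00000079547) had 21.82, 17.77 and 14.86 CPM in LPS libraries, against 20.62, 21.25 and 24.03 CPM in Vehicle libraries, with overlap and a log2 fold change of -0.27 ± 0.16 (adjusted p 0.272), which was -0.15 ± 0.15 without LPS 3.

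**Figure D4:**
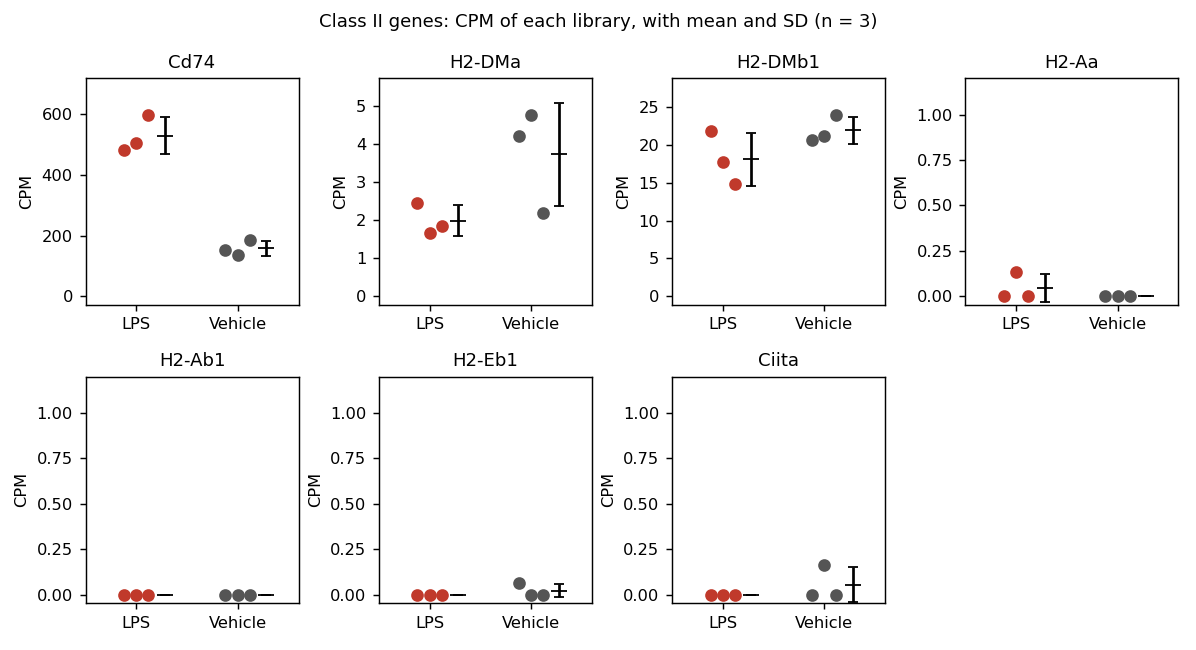
CPM of the 7 class II genes in each library on linear axes that differ between genes, LPS to the left of Vehicle, with bars for the mean and SD (n = 3). Cd74 stands at 481.4 to 598 CPM in LPS libraries and 137.3 to 185.6 CPM in Vehicle libraries, while H2-Aa, H2-Ab1, H2-Eb1 and Ciita have points at 0 in at least 5 of 6 libraries.

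Cd74, Cd40, Cd80 and Cd83 are also abundant in dendritic cells and B cells, so the markers of those cells were read beside them. The summed level of 8 dendritic cell markers was 37.3 to 49.4 CPM in LPS libraries and 41.8 to 44.5 CPM in Vehicle libraries, mostly Itgax, which microglia can also express. Flt3 and Cd209a were at 0 in all 6 libraries, and Clec9a, Siglech and Ccr7 had at most 19 counts in any. Xcr1 had 2.14, 2.35 and 1.33 CPM in LPS libraries, against 0.893, 0.842 and 0.971 CPM in Vehicle libraries, a log2 fold change of 1.11 ± 0.36 (adjusted p 0.0553) with no overlap. It was called without LPS 3 (adjusted p 0.0250) and in 3 of 10 other settings, and its adjusted p ran from 0.0250 to 0.170. Zbtb46 had 5.69, 4.93 and 4.68 CPM in LPS libraries, against 4.35, 3.84 and 3.76 CPM in Vehicle libraries, also with no overlap (log2 fold change 0.35 ± 0.20, adjusted p 0.248). The part of these markers in the changes of the presentation genes was not tested. The 6 B cell markers summed to 0.320 to 0.616 CPM in LPS libraries and 0 to 0.370 CPM in Vehicle libraries, with Ms4a1 and Ebf1 among those at 0 throughout. The 6 T cell markers summed to 0 to 0.123 CPM in LPS libraries and 0.380 to 0.554 CPM in Vehicle libraries, with 4 of them at 0 in every library.

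The costimulatory genes had the highest median change of the 5 groups. Of 6, 5 rose and Icosl did not pass; the median log2 fold change of the 6 was 1.52. Cd40, Cd83, Cd274 and Cd80 rose in every one of the 6 repeats without 1 library and in all 10 other settings. Without LPS 3 the log2 fold changes were 2.34 ± 0.18 for Cd40, 1.81 ± 0.10 for Cd274, 1.25 ± 0.14 for Cd80, 0.40 ± 0.09 for Cd86 and 0.06 ± 0.14 for Icosl.

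Cd40 (ENSMUSG00000017652), the receptor through which helper T cells license an antigen-presenting cell, had 43.81, 59.68 and 37.18 CPM in LPS libraries, against 11.66, 8.439 and 10.28 CPM in Vehicle libraries. The lowest LPS library was well above the highest Vehicle library, and the log2 fold change of 2.21 ± 0.21 (4.61-fold, adjusted p 0.000238) was the largest of the 28 tested genes. Cd83 (ENSMUSG00000015396), a maturation marker of dendritic cells that keeps class II and Cd86 on the surface, had 169.7, 190.3 and 108.2 CPM in LPS libraries, against 37.61, 43.69 and 43.56 CPM in Vehicle libraries. LPS 3 was clearly lower than the other LPS libraries and still far above all Vehicle libraries. The log2 fold change of Cd83 was 1.91 ± 0.21 (3.75-fold, adjusted p 0.000742), and 2.11 ± 0.10 without LPS 3.

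Cd80 and Cd86 are the ligands of the T cell receptors Cd28 and Ctla4, and both rose, Cd80 with the larger fold change. Cd80 (ENSMUSG00000075122) had 32.9, 30.39 and 34.88 CPM in LPS libraries, against 13.53, 14.58 and 11.59 CPM in Vehicle libraries. The groups were well apart, with a log2 fold change of 1.304 ± 0.13 (2.47-fold, adjusted p 0.000354). Cd86 (ENSMUSG00000022901) had 102, 90.94 and 93.11 CPM in LPS libraries, against 68.9, 75.44 and 74.63 CPM in Vehicle libraries. Its groups did not overlap either, but the log2 fold change was only 0.39 ± 0.09 (1.31-fold, adjusted p 0.0176). The Cd86 call was lost without LPS 1 or any of the Vehicle libraries, where the adjusted p reached 0.0791, and with total counts as the scaling (adjusted p 0.0550). Cd86 was still the more abundant of the pair, with 37.6 ± 2.31 CPM per kb in LPS libraries and 28.7 ± 1.40 in Vehicle libraries, against 10.3 ± 0.709 and 4.17 ± 0.477 for Cd80 (SD, n = 3 each).

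The log2 ratio of Cd80 to Cd86 was -1.54 ± 0.11 in LPS libraries and -2.47 ± 0.19 in Vehicle libraries (SD, n = 3 each; exact p 0.1, adjusted 0.14), a difference of 0.92 with all LPS libraries above. Cd274 (ENSMUSG00000016496), which encodes the inhibitory ligand of the receptor Pdcd1, had 80.07, 86.57 and 69.05 CPM in LPS libraries, against 22.61, 23.04 and 25.55 CPM in Vehicle libraries. It rose as well, by a log2 fold change of 1.73 ± 0.12 (3.31-fold, adjusted p 4.75e-05), and the groups were far apart. Its log2 ratio to Cd86 was -0.28 ± 0.19 in LPS libraries and -1.62 ± 0.08 in Vehicle libraries (SD, n = 3 each; exact p 0.1, adjusted 0.14). Icosl (ENSMUSG00000000732), the ligand of the T cell receptor Icos, had 13.07, 14.38 and 13.34 CPM in LPS libraries, against 13.1, 13.53 and 12.84 CPM in Vehicle libraries. The groups overlapped almost fully, and the log2 fold change was 0.05 ± 0.13 (adjusted p 0.827). A normal approximation put its 95% interval at -0.21 to 0.31, which is too narrow with 3 libraries a group. With total counts as the scaling the sign of the Icosl change turned, to -0.04.

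**Figure D5:**
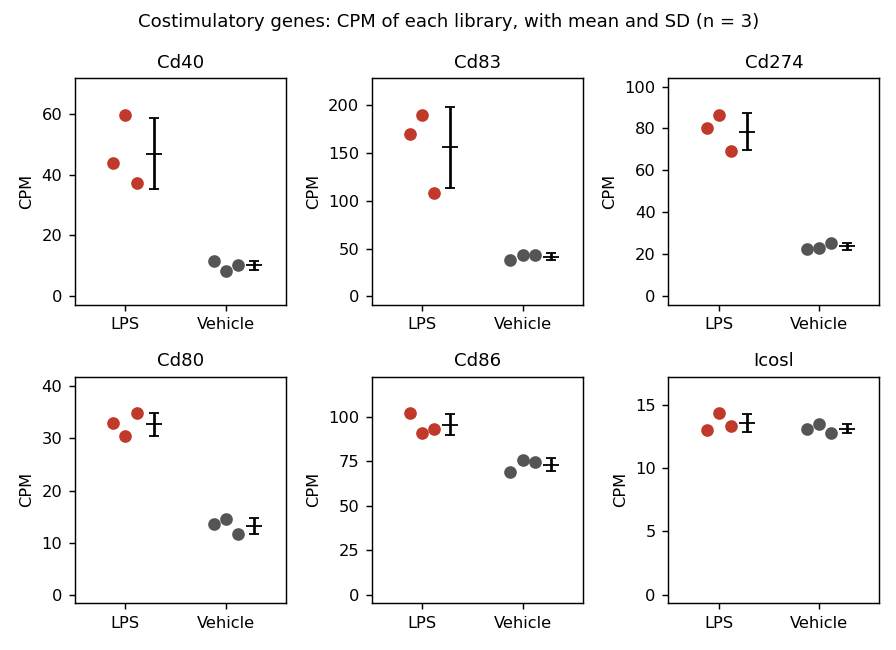
CPM of the 6 costimulatory genes in each library, LPS to the left of Vehicle, each axis reaching down to 0 and bars showing the mean and SD (n = 3). Cd40, Cd83, Cd274 and Cd80 stand apart between groups, Cd86 by a small margin, and Icosl lies at 12.84 to 14.38 CPM in all 6 libraries.

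Other genes of the same pathways were read from lists grouped by function. Like the members, these lists were chosen with earlier results of these data known, so their counts are a description only. Over all tested genes 12.7% were higher and 10.9% lower. Of 17 other class I and class I-like heavy chains 10 were tested, and 2 rose and 2 fell. Mr1, which presents vitamin B metabolites of microbes, averaged 17.2 ± 1.93 CPM in LPS libraries and 8.82 ± 1.00 CPM in Vehicle libraries (SD, n = 3 each), a log2 fold change of 0.96 ± 0.16 (adjusted p 0.00353). H2-M2 was called with 0.755 ± 0.479 CPM in LPS libraries and 0.0563 ± 0.0975 CPM in Vehicle libraries (SD, n = 3 each), close to the limit that a count of 0 allows, and lost the call without any library other than LPS 3. Cd1d1, which presents lipids, fell by 1.40 on the log2 scale (SE 0.31, adjusted p 0.0124), although not without LPS 2 or Vehicle 2. Hfe, the class I-like regulator of iron uptake, fell by 1.29 on the log2 scale (SE 0.23, adjusted p 0.00501).

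A further list held machinery of the endoplasmic reticulum that class I shares with other glycoproteins, and peptidases that are not all in that organelle. Of its 16 genes 3 were higher and 2 lower, at a median of 0.02, beside 12.7% higher and 10.9% lower over all tested genes. Hspa5, the main chaperone of the organelle, averaged 3061 ± 521 CPM in LPS libraries and 1113 ± 54.9 CPM in Vehicle libraries (SD, n = 3 each), and rose by a log2 fold change of 1.46 ± 0.13 (adjusted p 0.000167). Pdia4, a disulfide isomerase, rose by 0.73 ± 0.08 (adjusted p 0.000366) and Npepps, a cytosolic aminopeptidase, by 0.66 ± 0.12 (adjusted p 0.00586). Canx, the lectin chaperone that holds free heavy chains, fell by 0.51 on the log2 scale (SE 0.08, adjusted p 0.00338). Of 13 constitutive proteasome genes 1 rose (Psmb6, above) and 2 fell, Psma1 with a log2 fold change of -0.39 ± 0.11 (adjusted p 0.0366) and Psme3 with -0.25 ± 0.08 (adjusted p 0.0498). The call of Psme3 held only without LPS 3 among the 6 repeats, that of Psma1 only without LPS 1, and that of Psmb6 in all but those without Vehicle 1 or Vehicle 2.

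Of 18 tested genes of the wider class II pathway, 4 rose and 4 fell, at a median of -0.14. The lysosomal protease Ctsl, which cleaves Cd74 in some cells, averaged 1100 ± 29.3 CPM in LPS libraries and 1878 ± 137 CPM in Vehicle libraries (SD, n = 3 each), a log2 fold change of -0.77 ± 0.08 (adjusted p 0.000475). Ifi30, the lysosomal thiol reductase that unfolds antigens, fell by 0.64 on the log2 scale (SE 0.11, adjusted p 0.00399). Rfx5 and Creb1, factors that bind MHC promoters, rose by 0.49 ± 0.13 (adjusted p 0.0239) and 0.68 ± 0.16 (adjusted p 0.0176), and H2-Oa, a chain that restrains H2-DM, by 0.84 ± 0.24 (adjusted p 0.0336). The rises of these 3 genes were each lost in at least 4 of the 6 repeats without 1 library. Without LPS 1, LPS 2 or Vehicle 2, 1 gene of the list was called higher, without Vehicle 1 none and without Vehicle 3, 2.

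Among 15 tested other ligands of T cell costimulation and coinhibition, 7 rose and 2 fell, at a median of 0.45. Slamf7, a self-ligand of the SLAM family, averaged 9.35 ± 1.09 CPM in LPS libraries and 0.466 ± 0.111 CPM in Vehicle libraries (SD, n = 3 each), a log2 fold change of 4.32 ± 0.29 (adjusted p 3.84e-05). Tnfsf14 rose by 1.59 ± 0.29 (adjusted p 0.00550) and Cd276, a relative of Cd274, by 1.00 ± 0.17 (adjusted p 0.00358). Icam2 fell by 0.89 on the log2 scale (SE 0.20, adjusted p 0.0144), and not without Vehicle 3. Icam1, the adhesion ligand of the T cell integrin, averaged 113 ± 4.91 CPM in LPS libraries and 104 ± 3.33 CPM in Vehicle libraries (SD, n = 3 each), with a log2 fold change of 0.13 ± 0.08 (adjusted p 0.311). Pdcd1lg2, the other ligand of Pdcd1, was near the limit that a count of 0 allows, at 0.0400 ± 0.0694 CPM in LPS libraries and 0.262 ± 0.0143 CPM in Vehicle libraries (SD, n = 3 each; adjusted p 0.135).

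Of 23 genes for factors that act on MHC promoters or feed into them, 10 rose and 1 fell, at a median of 0.36. Leaving out 1 library at a time gave 7 to 8 higher, and the other settings 8 to 10. Nfkb2, an NF-kB subunit, averaged 221 ± 32.5 CPM in LPS libraries and 57.8 ± 3.52 CPM in Vehicle libraries (SD, n = 3 each), a log2 fold change of 1.93 ± 0.12 (adjusted p 3.13e-05). Socs1, an inhibitor of cytokine signalling, rose by 1.997 ± 0.37 (adjusted p 0.00592) at a low level, 2.61 ± 0.236 CPM in LPS libraries and 0.637 ± 0.296 CPM in Vehicle libraries (SD, n = 3 each). Irf8, which acts in myeloid cells, rose by 0.54 ± 0.12 (adjusted p 0.0141), and not without Vehicle 2 or Vehicle 3. Prdm1, a repressor, was called with 1.40 ± 0.44 (adjusted p 0.0484) and lost the call in all 6 repeats without 1 library. Kat2b, an acetyltransferase, fell by 0.50 on the log2 scale (SE 0.12, adjusted p 0.0212), and the call was lost without LPS 2 or any of the Vehicle libraries.

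Irf1, a factor of the interferon response, did not pass. It averaged 25.2 ± 2.34 CPM in LPS libraries and 24.7 ± 0.218 CPM in Vehicle libraries (SD, n = 3 each), with a log2 fold change of 0.03 ± 0.12 (adjusted p 0.889) whose sign turned under other scalings. Irf1 was not called in any repeat or setting.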

How the data were processed

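Libraries of poly(A)-selected BV2 RNA were made with the NEBNext Ultra kit and sequenced on an Illumina instrument, per the labels' protocols. The authors deposited expected counts (an estimate for each gene and library), which were whole numbers already. Tools named, without role or order, per the submitters' processing notes, were StringTie 1.3.1, HISAT2, DESeq2 and Bowtie2 2.2.8. The build is not given in the sources used here, nor is the annotation. Gene symbols, transcript lengths (the longest transcript) and exon overlaps came from GENCODE M21, and promoters from RefSeq. All 6 sample columns were mapped by name and 0 were left unmapped.

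Low genes were removed with filterByExpr (count 10, total count 15), and the rest were scaled by TMM and tested with the two-sided quasi-likelihood F-test of edgeR 4.0.16 in R 4.3.3, with Benjamini-Hochberg adjustment over all 16371 genes tested. Totals were 45969690 to 59023474 estimated counts. Log2 CPM in ratios and figures used a prior count of 2. An SE is the log2 fold change over the square root of F. Simulated counts with known changes were used to test the scripts. Alternatives were other scalings (DESeq2 size factors, upper quartile, total counts), no filter, a stricter filter (minimum count 50), the DESeq2 1.42.0 Wald test, limma 3.58.1 voom, the edgeR test from before version 4, a replicate block, division of the values by their spacing, a prior count of 0.5 in the ratios and leaving out each library. Figures were drawn with matplotlib 3.10.9.

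The members and lists were chosen with earlier results of these data known. All 32 members are accounted for, with values in every library for the called ones and for H2-K1, H2-D1, B2m, Tap1, Psmb8, Nlrc5, H2-Ab1, Ciita, Cd80, Cd86 and Cd274 whatever their result, and for other members where single libraries matter. Of each other list, up to 4 called genes with the largest changes are named, at least 1 each way where both occur, with Irf1, Irf8, Rfx5, Pdcd1lg2 and Icam1 named whatever their result. Results for some genes are not reported here.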

Additional observations from a re-analysis of the deposited data

How the results depend on the processing

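The number of members called higher was 10 to 14 in the 10 other settings and that called lower 2 to 3. Among the peptide-loading genes 1 was called higher, instead of 0, with the DESeq2 Wald test or the replicate block. The immunoproteasome had 2 genes lower, instead of 1, with upper-quartile scaling, total counts, the stricter filter, DESeq2, the replicate block and division by the spacing. The other class I list had 1 gene higher, instead of 2, with the stricter filter, voom, the older edgeR test and division by the spacing. The endoplasmic reticulum list had 4 genes lower, instead of 2, with total counts, the stricter filter and DESeq2, and the constitutive proteasome list had 1 lower, instead of 2, with no filter or the block. Icosl turned to -0.041 with total counts. Irf1 turned to -0.060 with total counts and -0.0017 with the upper quartile, and ran from -0.026 without LPS 1 to 0.099 without LPS 3. The cause of these shifts was not tested.

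Leaving out each library in turn gave 6 to 17 members higher and 1 to 2 lower, with 1 to 7 class I genes higher. The loading genes had 0 to 1 higher, the immunoproteasome 0 to 3 higher and 0 to 1 lower, class II 0 to 1 lower and the costimulatory genes 4 to 5 higher. The other lists gave 1 to 3 higher and 1 to 2 lower (class I-like), 3 to 5 higher and 2 to 3 lower (endoplasmic reticulum), 0 to 3 higher and 0 to 1 lower (constitutive proteasome), 0 to 4 higher and 3 to 4 lower (class II pathway), 6 to 7 higher and 2 lower (T cell ligands) and 7 to 8 higher and 0 to 1 lower (factors on MHC promoters). Over all genes 1291 to 2450 were higher and 1053 to 2085 lower. The members' higher calls fell to 7 without LPS 1, 8 without Vehicle 1, 7 without Vehicle 2 and 6 without Vehicle 3.

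Same-numbered libraries correlated by only 0.07, 0.05 and 0.06 in their deviations, so the numbers were not taken to pair them, although each library correlated best with its own number. With the replicate block 13 members were higher and 3 lower. H2-K1 (adjusted p 0.0552) and H2-D1 (0.0540) were not called, B2m (0.0376) and Tapbp (0.0242) were called higher and Psmb9 (0.0409) lower. Depth limits the class II chains, where values under 3 steps cannot be told from 0.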
